A study of Arabidopsis thaliana with 12 samples.

Results

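Transcript levels of 10 genes that restrain or promote cell death were followed in leaves of Arabidopsis thaliana challenged with bacterial elicitors, out of 32678 genes in the count table. The genes were grouped by function, with earlier results of these data known. They are the copines BON2 (AT5G07300) and BON3 (AT1G08860), the copine partners BAP1 (AT3G61190) and BAP2 (AT2G45760), ACD6 (AT4G14400), LSD1 (AT4G20380), LOL1 (AT1G32540), the metacaspases MC1 (AT1G02170) and MC2 (AT4G25110), and NUDT7 (AT4G12720). The 12 libraries formed 6 groups of 2, in which camta3-D (sr1-4d), a dominant mutant of the calmodulin-binding transcription activator CAMTA3, or Col-0 wild-type plants, 4 weeks old, were syringe-infiltrated. Leaves were taken 1 h after 100 nM flg22, or 4 h after Pseudomonas syringae pv. tomato (Pst) DC3000 carrying AvrRpm1 or AvrRps4 at an OD600 of 0.001. Each sample pooled 6 leaf discs from 6 plants. The study describes the RNA-seq libraries after flg22 and AvrRpm1 as coming from independent experiments, and the labels do not say which libraries shared an experiment. For the AvrRps4 libraries this is not given in the sources used here, and the spread between them may be technical. No mock-treated library was analysed here, and a genotype difference after a treatment cannot be told apart from one present without it.

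flg22 is a peptide of bacterial flagellin that is perceived at the cell surface, whereas AvrRpm1 and AvrRps4 are effectors delivered into the host cell and sensed there, AvrRpm1 by RPM1 and AvrRps4 by RRS1 together with RPS4. In the hypersensitive response, cells at the site of such recognition die, and plants hold this programme in check. Copines bind membrane phospholipids in a calcium-dependent manner and, together with the C2-domain proteins BAP1 and BAP2, repress cell death. LSD1 is a zinc finger protein that stops lesions from spreading, and its relative LOL1 acts in the opposite direction. MC1 promotes the hypersensitive response and MC2 counteracts it, ACD6 is a membrane protein with ankyrin repeats that amplifies salicylic acid signalling, and NUDT7 is a nudix hydrolase that limits EDS1-dependent defence.

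Gene counts per library ran between 22.8 and 26.3 M, with a median of 24.4 M, and levels are given as CPM, counts per 1 M gene counts, scaled by TMM factors of 0.797 to 1.17. The camta3-D allele is a point mutation, so the CAMTA3 transcript does not check the genotype labels. Reads aligned to several places made up 7.78% of the second AvrRpm1 camta3-D library and at most 3.43% of the other 11, and calls that were gained or lost without this library are given beside the result. Leaf mesophyll markers (RBCS1A, LHCB1.1 and RCA) were abundant throughout, the 2 root markers summed to at most 0.104 CPM and the 2 flower markers to at most 1.42 CPM. The 3 mesophyll markers summed to 39549 to 42395 CPM in camta3-D and 33234 to 36849 CPM in wild-type leaves after flg22, to 25029 to 27893 CPM and 19223 to 20860 CPM after AvrRpm1, and to 24639 to 30672 CPM and 20577 to 22226 CPM after AvrRps4. The 5 guard cell markers summed to less in camta3-D than in wild-type leaves after each treatment (58.0 to 63.7 CPM against 72.2 to 80.5 CPM after flg22, 50.1 to 65.6 CPM against 67.1 to 78.9 CPM after AvrRpm1, and 52.2 to 54.9 CPM against 56.1 to 62.2 CPM after AvrRps4). Some single guard cell markers had the higher mean in camta3-D. They were GC1 after flg22 (40.5 against 40.4 CPM) and MYB60 after AvrRpm1 (9.92 against 9.22 CPM). After AvrRps4 they were GC1 (15.8 against 11.7 CPM, without overlap) and SLAC1 (4.82 against 4.37 CPM). All other guard cell marker means were lower in camta3-D. Of the guard cell markers 2 of 5 (FAMA and MYB60) were called lower after flg22 and 1 of 5 (MYB60) after AvrRps4, and of 4 epidermis markers 1 (LTPG1) was called higher after AvrRpm1. The 2 phloem markers summed to 242 to 267 CPM in camta3-D and 213 to 224 CPM in wild-type leaves after flg22, and to less in camta3-D than in wild-type leaves after AvrRpm1 (163 to 169 CPM against 202 to 236 CPM) and AvrRps4 (137 to 173 CPM against 193 to 248 CPM). The part of these markers in the genotype differences below was not tested, and in whole leaves fewer cells of a type cannot be told apart from less RNA per cell.

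In camta3-D leaves, transcripts of 3 of these genes were lower than in wild-type leaves after at least 1 treatment. BAP2 was the member called lower after flg22. ACD6 and MC2 were called lower after both AvrRpm1 and AvrRps4. A call is an adjusted p under 0.05 in edgeR's quasi-likelihood test, adjusted over all 19167 genes tested. Thus 1 of 10 members was lower in camta3-D after flg22, where 5.59% of all genes tested were lower. After AvrRpm1 the count was 2 of 10, against 3.41% of all genes, and after AvrRps4 it was 2 of 10, against 2.44%. No member was called higher in camta3-D by edgeR or by DESeq2 in any of the 3 treatments. In edgeR, 5.21%, 1.12% and 2.49% of all genes were higher after flg22, AvrRpm1 and AvrRps4. At shares this low, the absence of such a call among 10 genes does not set the members apart. At an unadjusted p under 0.05 in edgeR, 0, 1 and 0 members were higher and 4, 5 and 3 were lower in the same treatments. By the ranks of the members' p, at least 4531, 2768 and 3259 of all 19167 genes passed that cut-off, in either direction. The 10 members had a median log2 fold change of -0.37 (flg22), -1.04 (AvrRpm1) and -0.18 (AvrRps4), beside 0.04, 0.01 and 0.00 over all genes tested. Without BON3, which had few counts after both Pst strains, the medians were -0.37, -0.91 and -0.20.

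**Figure D1:**
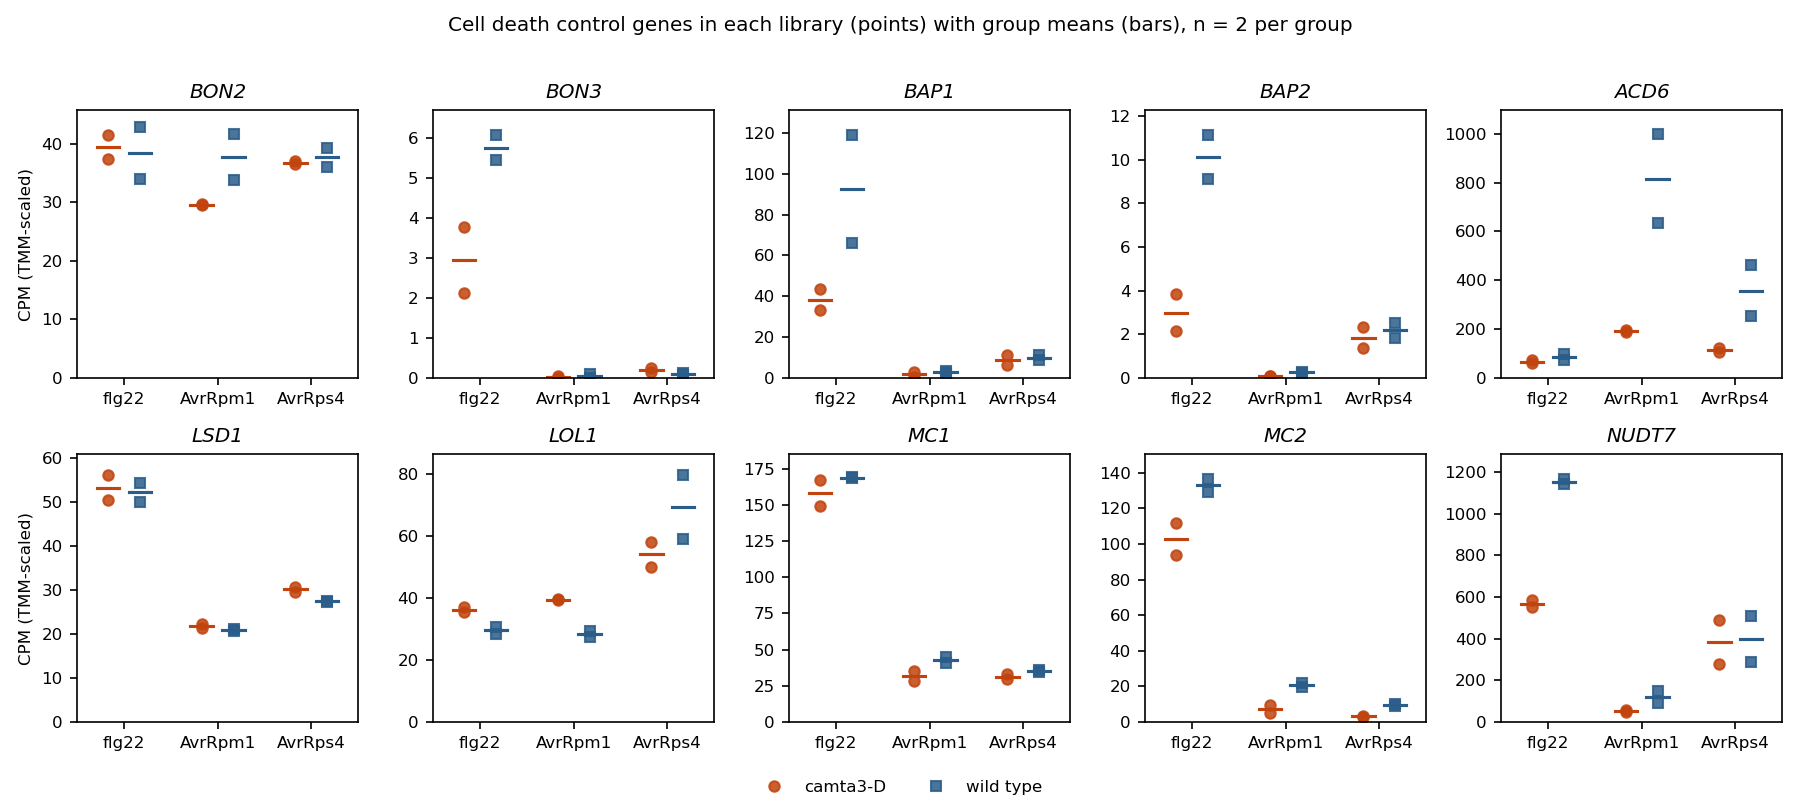
Level of each gene in each library, in TMM-scaled CPM on an axis that starts at 0, after flg22 (1 h), AvrRpm1 (4 h) and AvrRps4 (4 h). Circles are camta3-D libraries, squares are wild-type libraries and bars are means of 2 libraries. After AvrRpm1, ACD6 stood at 186 and 195 CPM in camta3-D and at 997 and 635 CPM in wild-type leaves, whereas BON2 stayed between 29.6 and 42.9 CPM everywhere.

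The copines behaved differently from each other. BON2 had 41.5 and 37.4 CPM in camta3-D leaves and 34.0 and 42.9 CPM in wild-type leaves after flg22. With AvrRpm1 the level was 29.6 and 29.7 CPM in camta3-D against 41.8 and 33.9 CPM in wild-type leaves, and after AvrRps4 37.1 and 36.5 CPM against 36.1 and 39.4 CPM. The genotypes overlapped after flg22 and AvrRps4 and separated after AvrRpm1, where the log2 fold change of -0.35 did not pass (adjusted p = 0.18). The highest of the 6 group means of BON2 was 1.33 times the lowest, the narrowest range among the 10 genes, and no comparison called it in edgeR. For flg22 against Pst in camta3-D, a log2 fold change of 0.31 was called by DESeq2 (adjusted p = 0.0499) and with median-ratio size factors (adjusted p = 0.0398), and a value of 0.27 with only the libraries compared (adjusted p = 0.0272) and of 0.26 with either flg22 wild-type library left out (adjusted p = 0.0472 and 0.0471) passed as well.

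BON3, by contrast, was counted almost only after flg22. It had 71 and 41 counts in camta3-D and 132 and 113 counts in wild-type leaves after flg22 (3.77 and 2.12 CPM against 6.08 and 5.46 CPM). After AvrRpm1 it had 0 and 1 counts in camta3-D and 0 and 3 counts in wild-type leaves, and after AvrRps4 4 and 6 counts against 2 and 3. The gene entered the test through its flg22 libraries alone, so it had to differ between treatments and is given as counts. Its summed counts after flg22 relative to those after AvrRps4, corrected for library size, gave a ratio of 15.0 in camta3-D (95% exact interval 7.84 to 32.0) and 64.0 in the wild-type (27.1 to 199). These intervals cover counting error only. After flg22 the genotypes did not overlap, and the log2 fold change of -0.97 did not pass the threshold (adjusted p = 0.135). By quantitative PCR, the paper reports a set of genes that includes AT1G08860 as significantly lower in camta3-D after flg22 and after AvrRpm1.

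BAP1 and BAP2 encode small C2-domain proteins that work with the copines at membranes. BAP2 had 3.83 and 2.12 CPM in camta3-D leaves and 9.12 and 11.1 CPM in wild-type leaves after flg22. Both camta3-D libraries were below both wild-type libraries, and the gene was lower in camta3-D (log2 fold change -1.77 ± 0.31, SE, n = 2 each, edgeR adjusted p = 0.0119). The call was lost without the second flg22 camta3-D library (adjusted p = 0.0684) or the second flg22 wild-type library (adjusted p = 0.0769). After AvrRps4 the genotypes overlapped, with 1.37 and 2.31 CPM in camta3-D and 1.82 and 2.52 CPM in the wild-type. After AvrRpm1, BAP2 had 2 and 2 counts in camta3-D and 8 and 6 counts in wild-type leaves, a ratio of 0.300 (95% exact interval 0.0719 to 0.956, counting error only), which the test did not call (adjusted p = 0.259).

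BAP1 had 33.4 and 43.4 CPM in camta3-D leaves and 65.9 and 119 CPM in wild-type leaves after flg22. The groups did not overlap, but the log2 fold change of -1.27 did not pass (adjusted p = 0.0852). It passed when either AvrRpm1 camta3-D library was left out of the shared fit (adjusted p = 0.0370 and 0.0368) or when only the libraries compared were fitted (adjusted p = 0.0447). After AvrRpm1 the level was 0.603 and 2.69 CPM in camta3-D and 3.55 and 2.51 CPM in wild-type leaves. After AvrRps4 it was 6.30 and 11.0 CPM against 8.57 and 11.3 CPM. The genotypes overlapped after both strains.

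Both BAP genes were lower after AvrRpm1 than after AvrRps4 in camta3-D leaves. BAP1 differed by a log2 fold change of -2.42 ± 0.55 (SE, edgeR adjusted p = 0.0127), a call lost without the first AvrRpm1 camta3-D library (adjusted p = 0.0552) or the second AvrRps4 camta3-D library (adjusted p = 0.0849), and when only the libraries compared were fitted (adjusted p = 0.0575). Without the second AvrRpm1 camta3-D library, the one with many multiply aligned reads, the log2 fold change was -3.83 (adjusted p = 0.00731). For BAP2, 2 and 2 counts after AvrRpm1 stood against 36 and 57 counts after AvrRps4 in camta3-D leaves (edgeR adjusted p = 0.00127), and the AvrRps4 counts were 24.4 times the AvrRpm1 counts (95% exact interval 9.22 to 91.5, counting error only). In wild-type leaves BAP2 was likewise lower after AvrRpm1 (log2 fold change -3.10 ± 0.44, SE, adjusted p = 0.0086), a call lost without the first AvrRpm1 wild-type library (adjusted p = 0.0644) or the second (adjusted p = 0.0508). BAP1 in wild-type leaves had a log2 fold change of -1.71 that did not pass in edgeR (adjusted p = 0.0892). It passed in DESeq2 (adjusted p = 0.0148), with only the libraries compared (adjusted p = 0.0406) and with either AvrRpm1 camta3-D library left out (adjusted p = 0.0348 and 0.0346).

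ACD6, which drives a positive feedback loop with salicylic acid, was the member with the largest log2 fold change between genotypes among those called. After AvrRpm1 it had 186 and 195 CPM in camta3-D leaves, against 997 and 635 CPM in wild-type leaves. After AvrRps4 the levels were 123 and 108 CPM in camta3-D and 254 and 460.4 CPM in the wild-type. After flg22 they were 73.6 and 58.8 CPM against 96.9 and 74.9 CPM. Every camta3-D library was below every wild-type library within its treatment. ACD6 was lower in camta3-D after AvrRpm1 (log2 fold change -2.10 ± 0.29, SE, n = 2 each, edgeR adjusted p = 0.00584), and the call held with each of the 4 libraries left out (adjusted p 0.00416 to 0.0446). Without the second AvrRpm1 camta3-D library the log2 fold change was -2.13 (adjusted p = 0.0295).

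After AvrRps4, ACD6 was lower by a log2 fold change of -1.63 ± 0.29 (SE, edgeR adjusted p = 0.0189), a call lost without the first AvrRps4 camta3-D library (adjusted p = 0.102) or the second (adjusted p = 0.124). After flg22 the log2 fold change of -0.38 did not pass (adjusted p = 0.429). The difference of the genotype effect between flg22 and AvrRpm1 was itself tested and did not pass in edgeR (difference of log2 fold changes 1.72, adjusted p = 0.0986), while DESeq2 called it (adjusted p = 0.004). ACD6 had higher levels in the Pst libraries than in the flg22 libraries in both genotypes. The log2 fold change of flg22 over the mean of both Pst strains was -1.16 ± 0.26 in camta3-D (adjusted p = 0.00277) and -2.65 ± 0.28 in the wild-type (adjusted p = 1.5e-05, SE). Between the strains the log2 fold change was 0.72 in camta3-D (adjusted p = 0.0961) and 1.19 in the wild-type (adjusted p = 0.0517), neither of which passed in edgeR. The camta3-D value passed with only the libraries compared (adjusted p = 0.0171) and with either AvrRps4 wild-type library left out (adjusted p = 0.0461 and 0.0460). The wild-type value passed in DESeq2 (adjusted p = 0.002), with no filter on low counts (adjusted p = 0.0254) and without the second AvrRps4 wild-type library (1.68, adjusted p = 0.0358).

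LSD1, the brake on spreading lesions, was not called between genotypes after any treatment. After flg22 it had 50.4 and 56.1 CPM in camta3-D and 54.4 and 50.0 CPM in wild-type leaves, which overlapped. After AvrRpm1 it had 21.3 and 22.2 CPM against 20.7 and 21.2 CPM, and after AvrRps4 29.6 and 30.7 CPM against 27.3 and 27.5 CPM. Genotype log2 fold changes were 0.03, 0.06 and 0.14 after flg22, AvrRpm1 and AvrRps4, with standard errors of 0.09 each and adjusted p of 0.868, 0.798 and 0.382. LSD1 was called between the strains. It was lower after AvrRpm1 than after AvrRps4 in camta3-D (log2 fold change -0.47 ± 0.09, SE, edgeR adjusted p = 0.00675; 0.0518 without the second AvrRps4 camta3-D library). In the wild-type the log2 fold change was -0.39 ± 0.09 (adjusted p = 0.0491), and this call was lost whichever of the 12 libraries was left out (adjusted p 0.0513 to 0.231). Of the 5 other settings it held in 1, DESeq2 (adjusted p = 0.0231).

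LOL1, the relative of LSD1 that promotes cell death, was the only gene of the set with more than 10 counts in every library whose genotypes separated without overlap in opposite directions in different treatments. The share of all genes with such an order was not determined, so this is a description only. It had 35.4 and 37.1 CPM in camta3-D and 30.8 and 28.3 CPM in wild-type leaves after flg22, and 39.3 and 39.6 CPM against 27.6 and 29.4 CPM after AvrRpm1. After AvrRps4 it had 58.2 and 49.9 CPM in camta3-D and 79.7 and 59.2 CPM in wild-type leaves. Both camta3-D libraries were thus above both wild-type libraries after flg22 and AvrRpm1 and below them after AvrRps4. None of the 3 log2 fold changes passed (0.29 after flg22, 0.47 after AvrRpm1 and -0.36 after AvrRps4, adjusted p = 0.206, 0.0952 and 0.152). The value after AvrRpm1 passed with either AvrRps4 wild-type library left out (adjusted p = 0.0439 and 0.0443), and that after AvrRps4 without the second AvrRps4 wild-type library (adjusted p = 0.0456).

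Between the strains, LOL1 was lower after AvrRpm1 than after AvrRps4 in both genotypes. In the wild-type the log2 fold change was -1.29 ± 0.14 (SE, edgeR adjusted p = 0.00456), which held with each of the 4 libraries left out. In camta3-D it was -0.46 ± 0.14 (adjusted p = 0.0404), which was lost in 10 of 12 fits with 1 library left out, its own 4 among them (adjusted p where lost 0.0528 to 0.213). The difference between those values did not pass in edgeR (0.83, adjusted p = 0.126) and passed in DESeq2 (adjusted p = 0.0235).

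MC1 and MC2 are type I metacaspases, cysteine proteases with opposite roles in the hypersensitive response. MC2, the antagonist, had 93.8 and 112 CPM in camta3-D and 136 and 129 CPM in wild-type leaves after flg22. After AvrRpm1 it had 5.04 and 9.76 CPM in camta3-D against 21.6 and 19.8 CPM in wild-type leaves, and after AvrRps4 3.36 and 2.91 CPM against 10.1 and 8.87 CPM. Every camta3-D library was below every wild-type library of its treatment. MC2 was lower in camta3-D after AvrRpm1 (log2 fold change -1.49 ± 0.24, SE, n = 2 each, edgeR adjusted p = 0.00976) and after AvrRps4 (-1.59 ± 0.26, adjusted p = 0.0141), while the value after flg22 did not pass (-0.37, adjusted p = 0.305). The AvrRpm1 call was lost without the first AvrRpm1 wild-type library (adjusted p = 0.0778) and when only the libraries compared were fitted (adjusted p = 0.112). Without the second AvrRpm1 camta3-D library the log2 fold change was -2.04 (adjusted p = 0.00203). The AvrRps4 call was lost without the first AvrRps4 camta3-D library (adjusted p = 0.0884), the second (adjusted p = 0.106) or the first AvrRps4 wild-type library (adjusted p = 0.0954).

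The difference of the MC2 genotype effect between treatments did not pass in edgeR, either between flg22 and AvrRpm1 (1.12, adjusted p = 0.141) or between flg22 and AvrRps4 (1.23, adjusted p = 0.143). DESeq2 called both (adjusted p = 0.0487 and 0.0402), and without the second AvrRpm1 camta3-D library the first passed in edgeR as well (1.67, adjusted p = 0.0398). MC2 was the member that edgeR called higher after AvrRpm1 than after AvrRps4. The log2 fold change was 1.23 ± 0.27 in camta3-D (SE, edgeR adjusted p = 0.0108), lost without the second AvrRps4 camta3-D library (adjusted p = 0.0775) and with only the libraries compared (adjusted p = 0.0623), and 0.68 without the second AvrRpm1 camta3-D library (adjusted p = 0.0377). In the wild-type it was 1.13 ± 0.24 (adjusted p = 0.0322), lost in 8 of 12 fits with 1 library left out, its own 4 among them (adjusted p where lost 0.0504 to 0.162).

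MC1 had 167 and 149 CPM in camta3-D and 168 and 169 CPM in wild-type leaves after flg22. After AvrRpm1 it had 28.3 and 35.2 CPM against 44.7 and 40.9 CPM, and after AvrRps4 32.8 and 29.9 CPM against 34.1 and 36.0 CPM. The genotypes did not overlap after any treatment, yet no genotype comparison called MC1 in edgeR (log2 fold change -0.09 after flg22, -0.43 after AvrRpm1 and -0.16 after AvrRps4, adjusted p = 0.651, 0.0809 and 0.464). DESeq2 called the AvrRpm1 value (adjusted p = 0.0244). MC1 overlaps its antisense neighbour AT1G02180 in the annotation, and LSD1 overlaps AT4G20390 on the same strand, so reads in the shared stretches cannot be told apart.

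NUDT7, which hydrolyses NADH and ADP-ribose, reached 583 and 552 CPM in camta3-D and 1142 and 1168 CPM in wild-type leaves after flg22. With AvrRpm1 it reached 46.4 and 59.1 CPM against 148 and 90.9 CPM, and after AvrRps4 281 and 492 CPM against 286 and 509 CPM. The genotypes separated after flg22 and AvrRpm1 and overlapped after AvrRps4. Neither separation passed in edgeR (log2 fold change -1.02 after flg22, adjusted p = 0.0754, and -1.18 after AvrRpm1, adjusted p = 0.0816), and DESeq2 called both (adjusted p = 0.0201 and 0.00817). The flg22 value also passed with only the libraries compared (-1.05, adjusted p = 0.00475), and the AvrRpm1 value with no filter on low counts (adjusted p = 0.0494). The AvrRps4 value was -0.04 (adjusted p = 0.953). The difference of the genotype effect between AvrRpm1 and AvrRps4 was -1.14 and did not pass (adjusted p = 0.281).

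NUDT7 was lower after AvrRpm1 than after AvrRps4 in camta3-D leaves (log2 fold change -2.87 ± 0.35, SE, edgeR adjusted p = 0.00125), with each of the 4 libraries left out (adjusted p 0.00311 to 0.00822). In the wild-type the log2 fold change was -1.73 ± 0.34 (adjusted p = 0.0242), a call lost without the first AvrRpm1 wild-type library (adjusted p = 0.0722), the second (adjusted p = 0.117) or the second AvrRps4 wild-type library (adjusted p = 0.12), and with only the libraries compared (adjusted p = 0.0754).

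**Figure D2:**
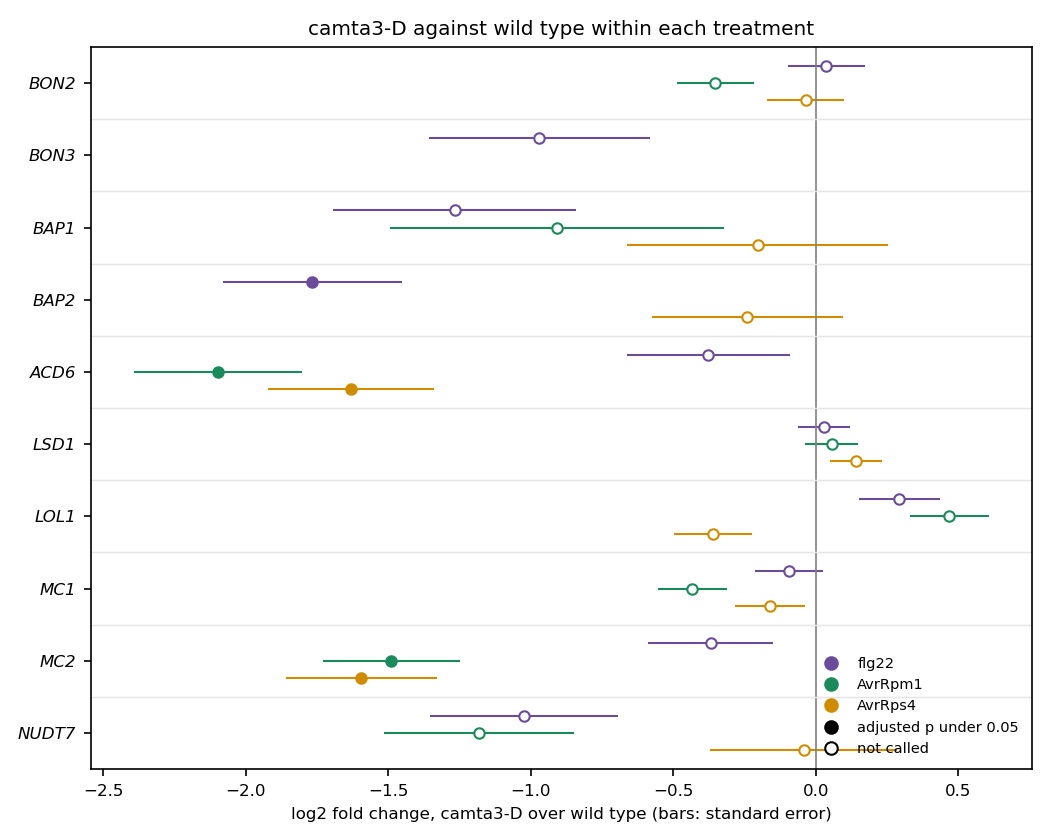
Log2 fold change of camta3-D over wild type for each gene after flg22, AvrRpm1 and AvrRps4, with standard errors from the edgeR fit. Filled symbols passed an adjusted p under 0.05, and values that involve a library with 3 counts or fewer (BON3 after both Pst strains, BAP2 after AvrRpm1) are not drawn. The 5 filled symbols, BAP2 after flg22 and ACD6 and MC2 after both strains, lie between -1.49 and -2.10.

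The genotype differences of the 10 genes were set against each other across treatments by testing the difference itself. For flg22 against AvrRpm1, flg22 against AvrRps4 and AvrRpm1 against AvrRps4, edgeR called 0 of 10 members each, where 0.563%, 0.047% and 0.0209% of all genes were called. At an unadjusted p under 0.05 in edgeR there were 2, 4 and 2 members. By the ranks of the members' p, between 857 and 3673, 1192 and 3404, and 2391 and 5205 of all 19167 genes passed it. The members under the unadjusted p were ACD6 and MC2 for the first contrast and ACD6, MC2, LOL1 and BAP2 for the second. For the third they were LOL1 and NUDT7. DESeq2 called 2, 1 and 1 members, and 662, 600 and 594 of all genes. A call after one treatment and not after another is therefore not shown to differ between treatments by edgeR on all 12 libraries. With 1 library left out, edgeR called 1 such difference, that of MC2 between flg22 and AvrRpm1 without the second AvrRpm1 camta3-D library.

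The 2 Pst strains were compared at the same time and inoculum, to set a response through RPM1 against one through RRS1 and RPS4. In camta3-D leaves, 5 of 10 members were lower after AvrRpm1 than after AvrRps4 (BAP1, BAP2, LSD1, LOL1 and NUDT7), where 12.4% of all genes were lower, and 1 was higher (MC2), where 10.5% were. In wild-type leaves 4 members were lower (BAP2, LSD1, LOL1 and NUDT7), where 2.17% of all genes were, and 1 was higher (MC2), where 1.58% were. DESeq2 called 5 lower and 1 higher in camta3-D, and 5 lower and 2 higher in wild-type leaves, where BAP1 and ACD6 were the additional members. Over all genes and in either direction, DESeq2 called 4784 in camta3-D and 1468 in wild-type leaves, where edgeR called 4383 and 719. The median log2 fold change of the members was -0.46 in camta3-D and -0.55 in wild-type leaves, beside 0.01 and 0.00 over all genes. Without BON3, which had few counts after both strains, it was -0.46 and -0.39. Without the second AvrRpm1 camta3-D library, 5 members in place of 6 were called in camta3-D.

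flg22 at 1 h and Pst at 4 h differ in elicitor and in time together, and these cannot be told apart. Set against the mean of both strains, 7 members were higher after flg22 in each genotype, where 32.5% of all genes were higher in camta3-D and 34.3% in wild-type leaves. They were BON3, BAP1, BAP2, LSD1, MC1, MC2 and NUDT7. In each genotype 2 members, ACD6 and LOL1, were lower after flg22, where 33.9% of all genes were lower in camta3-D and 36.8% in the wild-type. DESeq2 called 8 higher and 1 lower in camta3-D, with BON2 gained and LOL1 lost, and 7 higher and 2 lower in the wild-type. It called 12483 of all genes in camta3-D and 13377 in the wild-type, in either direction. Leaving aside BON3, which passed the filter through its flg22 libraries, 6 of 9 members were higher, and their median log2 fold change was 1.99 in camta3-D and 2.12 in the wild-type, beside -0.03 and -0.05 over all genes.

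MC2 had the largest log2 fold change of flg22 over Pst in camta3-D among members with more than 3 counts in every library, 4.42 ± 0.20 (SE, edgeR adjusted p = 8.9e-08), against 3.24 ± 0.19 in the wild-type (adjusted p = 2.6e-07). MC1 had 2.32 ± 0.10 in camta3-D (adjusted p = 7.2e-08) and 2.12 ± 0.10 in the wild-type (adjusted p = 9.0e-08). BAP1 differed by 3.36 ± 0.39 in camta3-D (adjusted p = 3.5e-05, and 4.06 without the second AvrRpm1 camta3-D library) and 4.07 ± 0.37 in wild-type leaves (adjusted p = 5.4e-06). NUDT7 differed by 1.99 ± 0.27 in camta3-D (adjusted p = 0.00011) and 2.41 ± 0.27 in the wild-type (adjusted p = 2.4e-05), and LSD1 by 1.06 ± 0.08 and 1.13 ± 0.08. BAP2 in camta3-D was called as well, although its second flg22 library, at 2.12 CPM, was below its second AvrRps4 library, at 2.31 CPM. LOL1 was lower by -0.35 ± 0.12 in camta3-D (adjusted p = 0.0284) and -0.59 ± 0.12 in the wild-type (adjusted p = 0.00171). The camta3-D call of LOL1 was lost without the first flg22 camta3-D library (adjusted p = 0.134), the second (adjusted p = 0.0827) or the first AvrRps4 camta3-D library (adjusted p = 0.0756), and in DESeq2 (adjusted p = 0.0574). In wild-type leaves LOL1 after flg22 overlapped with AvrRpm1 (group means 29.6 and 28.5 CPM) and lay below AvrRps4 (69.4 CPM).

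**Figure D3:**
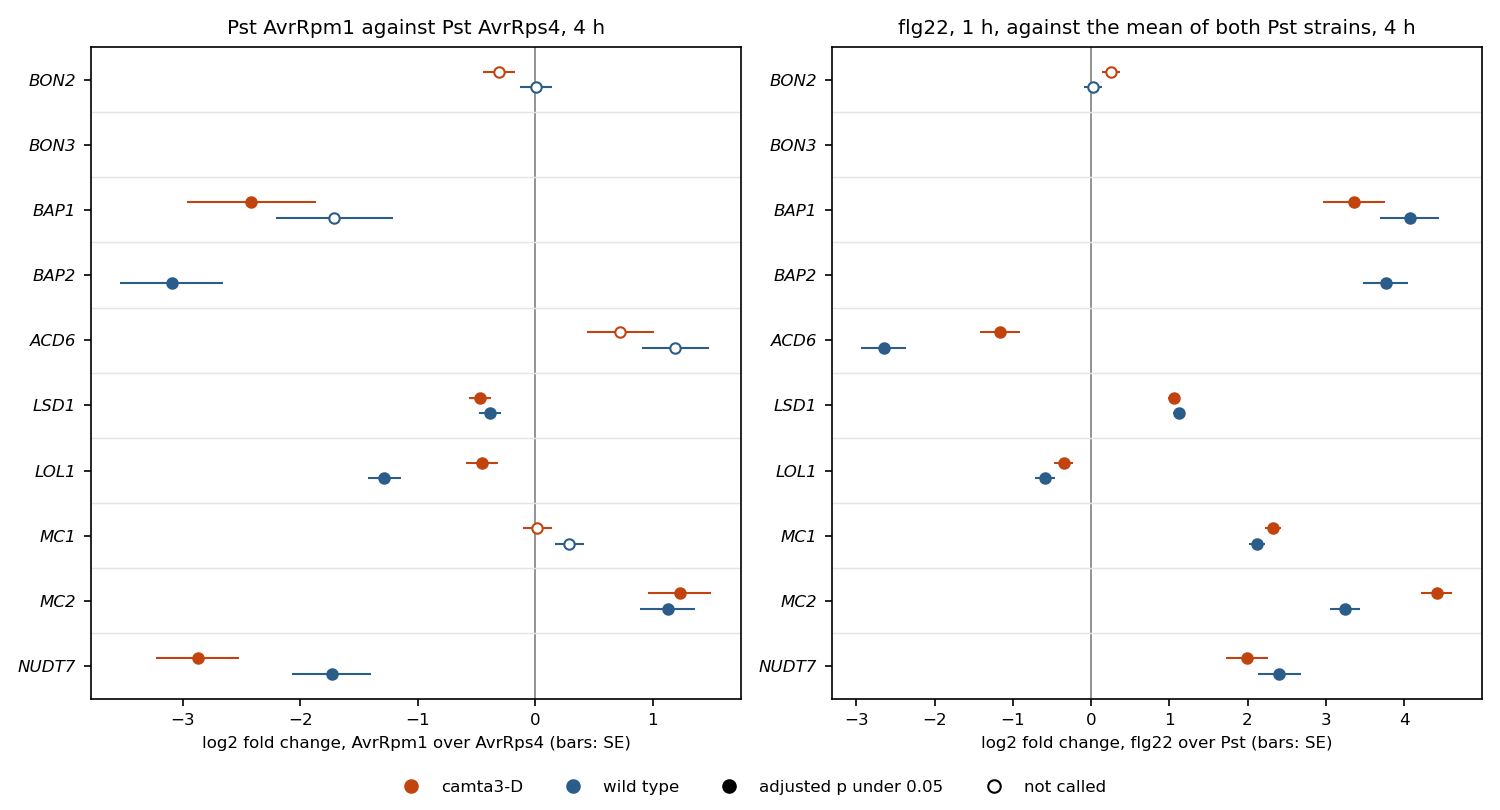
Log2 fold change of AvrRpm1 over AvrRps4 (left) and of flg22 over the mean of both Pst strains (right) in camta3-D and wild-type leaves, with standard errors. Filled symbols passed an adjusted p under 0.05, and contrasts with a library of 3 counts or fewer (BON3, and BAP2 in camta3-D) are not drawn. MC2 lies to the right in both panels (1.23 and 1.13 on the left, 4.42 and 3.24 on the right), whereas NUDT7 lies to the left for the strains (-2.87 and -1.73) and to the right for flg22 (1.99 and 2.41).

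Related genes can be compared with each other only per transcript length, and levels were therefore divided by the exon length of each gene (CPM per kb). BAP1 was above BAP2 in every group, at 27.4 and 3.34 CPM per kb in camta3-D and 66.1 and 11.3 CPM per kb in wild-type leaves after flg22. LSD1 and LOL1 changed order between groups. LSD1 exceeded LOL1 after flg22 (32.0 and 14.6 CPM per kb in camta3-D, 31.3 and 11.9 in wild-type leaves), and LOL1 exceeded LSD1 after AvrRps4 (21.8 and 18.1 CPM per kb for LOL1 and LSD1 in camta3-D, 28.0 and 16.4 in wild-type leaves). After AvrRpm1, LOL1 exceeded LSD1 in camta3-D (15.9 and 13.0 CPM per kb), while LSD1 exceeded LOL1 in wild-type leaves (12.5 and 11.5 CPM per kb).

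MC1 exceeded MC2 in every group. After flg22 MC1 and MC2 stood at 109 and 56.3 CPM per kb in camta3-D and at 116 and 72.6 CPM per kb in wild-type leaves. After AvrRps4 they stood at 21.6 and 1.71 CPM per kb in camta3-D and at 24.2 and 5.18 CPM per kb in the wild-type. The order of the groups also differed between the genes. For NUDT7 and BAP1, wild-type leaves after flg22 were highest and camta3-D leaves after AvrRpm1 lowest, with group means that spanned a ratio of 21.9 for NUDT7 and 56.2 for BAP1. For ACD6, wild-type leaves after AvrRpm1 were highest and camta3-D leaves after flg22 lowest, a ratio of 12.3, and no neighbouring groups in that order overlapped.

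**Figure D4:**
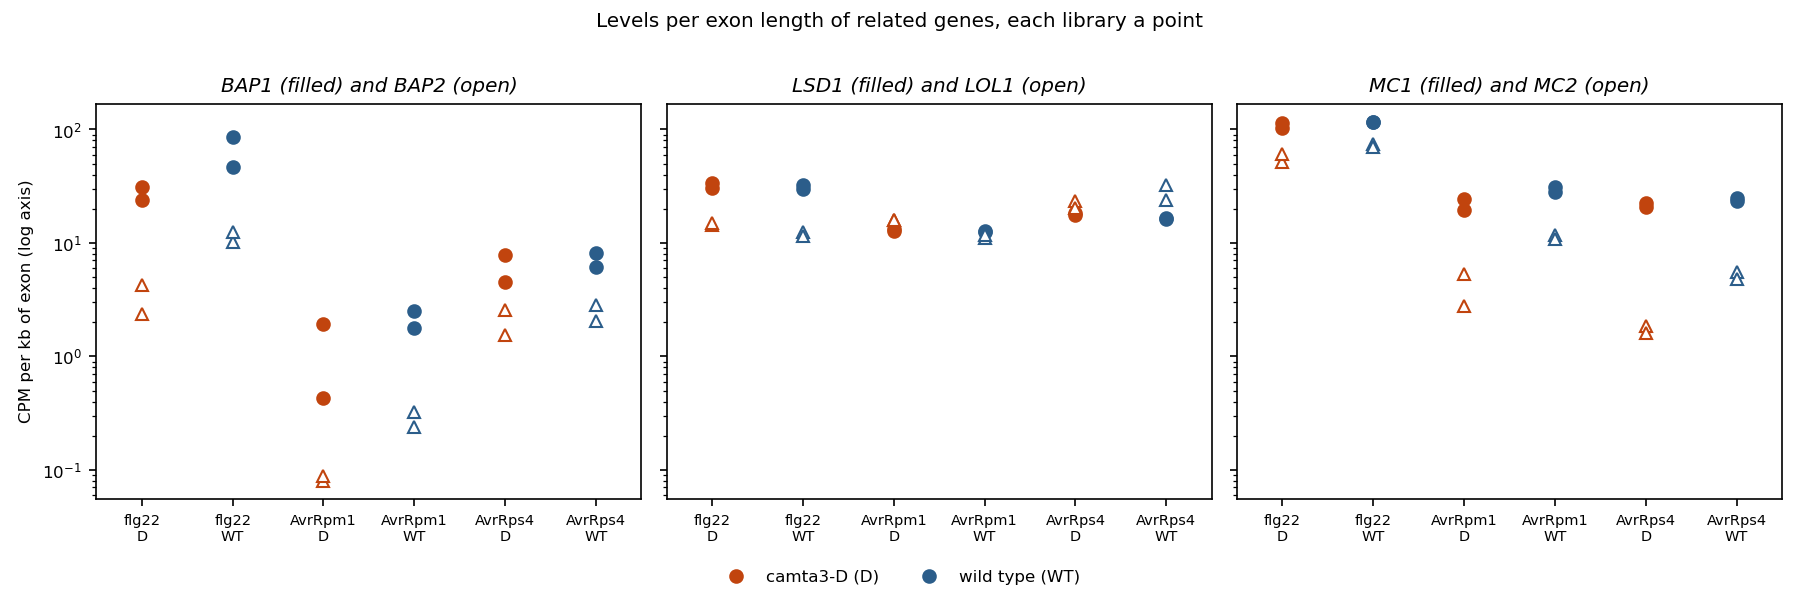
Level per kb of exon, on a log axis, of BAP1 and BAP2, of LSD1 and LOL1, and of MC1 and MC2, with each library as a point and camta3-D (D) to the left of wild type (WT) within each treatment. MC1 and MC2 lie close together after flg22 and far apart after AvrRps4 in camta3-D (21.6 and 1.71 CPM per kb), while LSD1 and LOL1 cross.

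Other regulators of cell death were taken from a list of 34 genes, of which 31 were tested. In edgeR, 1 was higher in camta3-D and 5 were lower after flg22, while the 4 genes called after AvrRpm1 and the 2 called after AvrRps4 were all lower. Over all genes, 5.21% were higher and 5.59% lower after flg22, 1.12% and 3.41% after AvrRpm1, and 2.49% and 2.44% after AvrRps4. The calls after flg22 and AvrRps4 do not compare the second AvrRpm1 camta3-D library, and none of them held with each of their own libraries left out. Of the calls after AvrRpm1, only that of NUDT6 held without that library. NUDT6, the closest relative of NUDT7 on the list, was lower in camta3-D after all 3 treatments. It had 0.585 and 0.207 CPM in camta3-D against 5.30 and 13.2 CPM in wild-type leaves after flg22, 0.674 and 2.02 CPM against 54.6 and 16.9 CPM after AvrRpm1, and 2.90 and 3.16 CPM against 19.5 and 26.4 CPM after AvrRps4. The log2 fold changes were -4.54 ± 0.90, -4.75 ± 0.70 and -2.92 ± 0.63 (SE, edgeR adjusted p = 0.0164, 0.00721 and 0.0333), and the groups did not overlap. The NUDT6 call after AvrRpm1 held with each of its libraries left out, whereas those after flg22 and AvrRps4 did not. With the replicate block the AvrRps4 call was lost as well.

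Among other metacaspases, MC8 was lower in camta3-D after flg22, with 12.2 and 5.18 CPM against 27.6 and 57.1 CPM in wild-type leaves (log2 fold change -2.29 ± 0.44, SE, edgeR adjusted p = 0.0152). SNC1, an intracellular receptor that the copines restrain, was lower after flg22 (log2 fold change -1.06 ± 0.18, adjusted p = 0.00909). BI1, an endoplasmic reticulum protein that suppresses cell death, was lower after flg22 (-0.78 ± 0.16, adjusted p = 0.0169) and after AvrRps4 (-0.71 ± 0.16, adjusted p = 0.0366). ACD2, an enzyme of chlorophyll breakdown, was higher after flg22 (0.64 ± 0.10, adjusted p = 0.00777). GAMMA-VPE, a vacuolar protease, and PAD4, a partner of EDS1, were lower after AvrRpm1 (-1.07 ± 0.19 and -2.90 ± 0.55, adjusted p = 0.0147 and 0.0195). MLO2, a membrane protein needed by powdery mildew fungi, was lower after AvrRpm1 as well (89.5 and 104 CPM in camta3-D against 228 and 159.5 CPM in wild-type leaves, adjusted p = 0.0227), and PAD4 after flg22 (-2.52 ± 0.53, adjusted p = 0.0191). After AvrRpm1 the calls of GAMMA-VPE, PAD4 and MLO2 were lost without the second AvrRpm1 camta3-D library (adjusted p = 0.0744, 0.0550 and 0.0553), and all 4 calls after AvrRpm1 were lost with only the libraries compared. Among those not tested, BON1 had at most 2 counts in any library, and its locus lies within that of AT5G61910 in the annotation, so that its reads may have been set aside as ambiguous.

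Promoter sequences were inspected because CAMTA proteins bind a CGCG or CGTG core and WRKY factors a TTGAC core. In windows from 250 bases before to 50 bases after each annotated gene start (TAIR10.1, both strands), CGCG was found in 2 of 10 members, BON3 and LSD1, and in 13% of 26707 windows of the same length. Both members held it within ACGCGT, as did 2.13% of windows. TTGAC was found in 3 of 10, BAP2, MC2 and NUDT7, and in 50.5% of windows. CGTG was found in 3 of 10, BON2, BAP2 and ACD6 (52.7% of windows), and TGACG in 1 of 10 (23.1% of windows). Of the members called between genotypes, BAP2 held TTGAC and CGTG, MC2 held TTGAC, and ACD6 held CGTG, and CGCG was in none of the 3 windows. The 150 bases before the gene start of the 5 members that held CGCG or TTGAC are shown from 5′ to 3′ in the direction of transcription, with CGCG and TTGAC on either strand in capitals, read from RefSeq's TAIR10.1 assembly.
BON3 (chr1:2841819-2841968, plus strand): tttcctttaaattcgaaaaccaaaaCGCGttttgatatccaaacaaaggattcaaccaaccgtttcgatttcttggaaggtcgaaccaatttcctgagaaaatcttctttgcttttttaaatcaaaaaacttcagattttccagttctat
LSD1 (chr4:11004353-11004502, plus strand): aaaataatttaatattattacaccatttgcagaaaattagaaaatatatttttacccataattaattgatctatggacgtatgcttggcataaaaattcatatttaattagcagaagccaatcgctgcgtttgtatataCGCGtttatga
BAP2 (chr2:18847836-18847985, minus strand): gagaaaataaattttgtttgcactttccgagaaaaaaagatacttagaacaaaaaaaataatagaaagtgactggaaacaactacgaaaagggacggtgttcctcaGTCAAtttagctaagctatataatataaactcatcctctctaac
MC2 (chr4:12890263-12890412, minus strand): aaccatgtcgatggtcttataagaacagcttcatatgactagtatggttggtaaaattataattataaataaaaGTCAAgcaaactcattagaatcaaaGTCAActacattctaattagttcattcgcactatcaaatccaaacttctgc
NUDT7 (chr4:7487075-7487224, plus strand): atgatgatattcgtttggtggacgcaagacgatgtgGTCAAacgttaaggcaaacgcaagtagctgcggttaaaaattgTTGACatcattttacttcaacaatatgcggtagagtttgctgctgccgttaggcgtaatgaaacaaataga
In BON3 the CGCG core shown began 125 bases before the gene start and in LSD1 it began 11 bases before it. Both windows held CGCG again after the gene start, outside the bases shown. BON3 was counted almost only after flg22, while LSD1 was higher after flg22 than after Pst in both genotypes and did not differ detectably between genotypes. BAP1, BAP2, MC1, MC2 and NUDT7, without CGCG in their windows, were also called higher after flg22 than after Pst in both genotypes. A match is a description of the letters and not a binding site.

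Genes with the most similar profile to each member were found by the root-mean-square difference of mean-centred log2 CPM over the 12 libraries, where a small value means a like pattern. The nearest to NUDT7 was MPK3, a mitogen-activated protein kinase of early defence, at 0.313 (median over all genes compared 1.54), then AT5G08240 and AT3G04220. Nearest to BAP1 was CKX4 at 0.371 (median 2.11), then AT3G54150 and AT5G41740. BAP2 lay nearest to AT5G22520 at 0.336 (median 2.06), then AT2G32140 and AT2G32030. ACD6 was closest to GT72B1 at 0.386 (median 1.29), then ARO4 and ERF15. For the metacaspases, MC1 lay nearest to AT3G29075 at 0.108 (median 1.11), then AT4G12070 and CRCK2, and MC2 to AT1G15670 at 0.265 (median 2.01), then AT4G15070 and AT3G51340. The nearest gene to LSD1 was AT2G44430 at 0.0896 (median 0.680), then BPC1 and SK32, and that to LOL1 was AT5G41580 at 0.228 (median 0.615), then AT4G22190 and AT3G51150. Of the copines, BON2 was closest to AT4G38250 at 0.0992 (median 0.452), then RS2Z32 and AT4G11800, and BON3 to AT2G20562 at 0.319 (median 2.34), then AT3G19970 and HHP2. Among the members themselves the smallest values were 0.496 for BON2 and LSD1, 0.513 for BON2 and LOL1 and 0.600 for BAP2 and NUDT7, and BAP1 and BAP2 stood at 0.744. These likenesses are descriptions over libraries that share treatment and genotype.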

How the data were processed

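Raw counts of reads, as deposited by the authors for 12 libraries, covered 32678 genes and 5 summary lines without a gene. Per the labels and the submitters' processing notes, polyadenylated RNA was prepared with the TruSeq kit (v2), and FastQC (0.11.2), TopHat2 (2.0.10), HTSeq and the TAIR10 genome were used. The version, strand and overlap settings of HTSeq are not given in the sources used here. Reads that fell in no gene made up 2.16% to 2.95% of the table, ambiguous reads 0.428% to 0.617% and multiply aligned reads 2.56% to 7.78%, and these lines were left out of library sizes.

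Genes were kept by filterByExpr (minimum count 10), which left 19167 genes, all 10 members among them. Counts were scaled by TMM and fitted with edgeR (4.0.16, R 4.3.3) by quasi-likelihood, with 1 mean per group, 6 residual degrees of freedom and 10 contrasts. Benjamini-Hochberg adjustment ran over all genes tested, and the standard error is the log2 fold change over the square root of the F statistic. The prior count was 0.125 in fitted fold changes and 2 in log2 CPM values. Gene positions, exon lengths and sequences came from RefSeq's TAIR10.1, whose nuclear chromosomes match TAIR10 in length, although its gene starts may differ. The 2 libraries of each group differed by more than counting noise. Intervals on ratios of summed counts are exact conditional binomial intervals and cover counting error only.

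Alternatives were median-ratio size factors, DESeq2 (1.42.0), no filter, a replicate block, a fit of only the libraries compared, and leaving out each library, applied to the members and, as a choice made after seeing the data, to the other regulators called. Members, lists and tests were chosen with earlier results of these data known. Named genes were all members, the genes called in a genotype comparison among 34 other cell death regulators (up to 2 with the smallest p per role group and comparison, with MLO2 and PAD4 after flg22 named in addition, after their values were seen), and the 3 genes nearest to each member among genes averaging 2 log2 CPM or more.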

Additional observations from a re-analysis of the deposited data

Results flagged for a closer look

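Both camta3-D libraries of LOL1 lay above both wild-type libraries after flg22 and AvrRpm1 and below both after AvrRps4. How many of all genes separated in opposite directions was not determined. The difference of the genotype effect was 0.65 on the log2 scale between flg22 and AvrRps4 (edgeR adjusted p = 0.162, DESeq2 adjusted p = 0.106) and 0.83 between AvrRpm1 and AvrRps4 (edgeR adjusted p = 0.126, DESeq2 adjusted p = 0.0235). BON3 was lower in both camta3-D than in both wild-type libraries after flg22 (71 and 41 against 132 and 113 counts) and higher after AvrRps4 (4 and 6 against 2 and 3 counts). The fitted difference for BON3 was -2.05 (edgeR adjusted p = 0.32), and it rests on single-digit counts after AvrRps4, so its size depends on the prior count.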

How the results depend on the processing

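Of 34 calls of a member in a comparison, 28 held under all 5 other settings (median-ratio size factors, no filter, replicate block, DESeq2 and only the libraries compared), 21 held with each library of the groups compared left out, and none reversed its direction. Most calls that held with each library left out were for flg22 against Pst. The calls of BON3 in both genotypes are among these and among the 34, 28 and 21. BON3 passed the filter through its flg22 libraries alone, so its calls were set by the filter and say nothing about stability. Among the calls between genotypes, only that of ACD6 after AvrRpm1 held in this way. DESeq2 called 2 members for camta3-D against wild type after flg22, where edgeR called 1, and 4 after AvrRpm1, where edgeR called 2. It called 2, 1 and 1 members for the differences of the genotype effect (flg22 against AvrRpm1, flg22 against AvrRps4, AvrRpm1 against AvrRps4), where edgeR called 0 each. With only the libraries compared, 3 members were called after flg22 and 1 after AvrRpm1. With 1 library left out, the counts of members ranged from 0 to 2 after flg22, 1 to 3 after AvrRpm1 and 0 to 3 after AvrRps4 between genotypes, from 2 to 7 in camta3-D and 1 to 5 in wild-type leaves between the strains, and from 8 to 10 in camta3-D and 9 to 9 in wild-type leaves for flg22 against Pst. For the differences of the genotype effect they ranged from 0 to 1, 0 to 0 and 0 to 0. Leaving out a library of a group compared leaves that group with 1 sample, which the fit assumes to vary like the other groups. Of the 12 calls among the other regulators, an alternative added after seeing the data, the same 5 settings kept 6 of 6 after flg22, 0 of 4 after AvrRpm1 and 1 of 2 after AvrRps4, and 0, 1 and 0 held with each library of the groups compared left out.

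Over all genes, the counts moved more. DESeq2 called 1500 genes after AvrRpm1 and 1823 after AvrRps4 between genotypes, where edgeR called 867 and 944, and a fit of only the libraries compared called 108 and 535. For flg22 the counts were 2071 in the shared fit, 1203 with only the libraries compared and 2579 with DESeq2. Between the strains in wild-type leaves they were 719, 373 and 1468, and with 1 library left out they ranged from 65 to 860. For the 3 differences of the genotype effect, edgeR called 108, 9 and 4 genes and DESeq2 662, 600 and 594. The cause was not tested.

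Same-numbered libraries did not deviate together over all genes (correlation across genes -0.182 to 0.0983 over 15 pairs of groups). The numbers need not follow the experiments, so this cannot show whether libraries shared an experiment. With the replicate block, 1, 2 and 2 members were called between genotypes after flg22, AvrRpm1 and AvrRps4, 6 and 4 between the strains in camta3-D and wild-type leaves, 9 and 9 for flg22 against Pst, and 0 for each difference of the genotype effect. In the same order, it called 1679, 655 and 632, then 3999 and 579, then 12532 and 13453 of all genes. For the differences of the genotype effect it called 7, 8 and 5 of all genes. Low counts limit BON3 after both Pst strains and BAP2 after AvrRpm1.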
